A study of Mus musculus with 6 samples.

Results

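The genes described here are 10 products of neutrophils and of the acute phase response: S100a8, S100a9, Ltf, Camp, Ngp, Lcn2, Mmp8, Slpi, Saa3 and Csf3r. They were taken by symbol from a table of 27634 genes, and all 10 were found in it. Neutrophils make their antimicrobial proteins during maturation in the bone marrow and store them in granules, and S100a8 and S100a9 fill their cytosol. Several of these genes are not limited to neutrophils: monocytes also carry S100a8 and S100a9, and macrophages and epithelia can switch on Lcn2, Slpi and Saa3 in inflammation. C/EBP transcription factors are known to drive granule genes during granulocyte maturation.

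The RNA was that of cells labelled cancer-associated dendritic cells, from C57BL/6 mice with tumours of ID8-Defb29/Vegf-a, a mouse ovarian cancer line that makes beta-defensin 29 and VEGF-A. The tumours had grown for 32 to 38 days, and every mouse, controls included, received 100 µg of siRNA in nanocomplexes with rhodamine-coupled polyethylenimine, a carrier polymer. The groups were Satb1 siRNA with strong downregulation of Satb1, a chromatin organiser (2 libraries, "high"), its control with non-targeting (NT) siRNA (2 libraries), Satb1 siRNA with weak downregulation (1 library, "low") and its NT control (1 library). Total counts were 49022011 to 71272720 in the high libraries and 24553454 to 27029554 in the low libraries. The labels used here state neither how the cells were gated nor whether repeats came from separate mice.

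The repeats of a high group differed by little more than sampling noise, with a chi-square of 1.37 per gene for Satb1 siRNA and 1.2 for NT, where counting noise alone gives about 1. The fits of the high experiment and of the difference between experiments used both repeats, so their standard errors and p-values compare the sequenced libraries, not conditions over animals. In the fit with repeats summed each group counted as 1 sample. Satb1 itself had 184 and 200 counts with Satb1 siRNA in the high experiment, against 1233 and 1193 with NT siRNA, and in the low experiment 165 counts against 170. After scaling, the low ratio was 0.835 (95% counting interval 0.670 to 1.04), and a decrease was not detectable there at this depth. The authors' FPKM, scaled for gene length and depth, was 1.04 with Satb1 siRNA and 0.98 with NT siRNA there. The direction of the low ratio thus depended on the scaling. The dendritic cell label was only partly borne out by marker levels. Flt3 is a receptor of dendritic cell precursors. It had 1.88 and 1.59 CPM in the high Satb1 siRNA libraries and 0.875 and 1.05 CPM in the high NT libraries. In the low experiment it had 41.5 CPM with Satb1 siRNA and 16.4 CPM with NT siRNA. Itgax, another such marker, had 5.47 and 4.93 CPM in the high Satb1 siRNA libraries and 20.3 and 20.2 CPM with NT siRNA there. It had 272 CPM in the low Satb1 siRNA library and 159 CPM in the low NT library. In the high experiment Itgax thus fell (log2 fold change -1.95, edgeR adjusted p = 1.03e-42), while Flt3 rose (0.85, edgeR adjusted p = 4.34e-06). The 12 dendritic cell markers together, none of them at 0, summed to 239 and 237 CPM in the high Satb1 siRNA libraries, 352 and 354 CPM in the high NT libraries, 2412 CPM in the low Satb1 siRNA library and 2287 CPM in the low NT library. H2-Ab1, an MHC class II gene, and Irf8 made up most of each sum, and H2-Ab1 alone had 1632 CPM in the low Satb1 siRNA library and 1705 CPM in the low NT library. In the high experiment 6 of the 12 were called higher and 5 lower (median log2 fold change 0.074), so the lower sum with Satb1 siRNA does not describe the list. The macrophage receptor gene Csf1r stood at 425 CPM or more in every library. Levels varied across the macrophage markers, and Vsig4 had 7.58 to 22.3 CPM over the 6 libraries. CPM is the count relative to the library total, here after trimmed mean (TMM) scaling over all 6 libraries.

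The promoters of 5 of the genes are shown as examples of the granule, cytosolic and acute phase classes described below. Each run is 250 bases before to 50 after the RefSeq start, build GRCm38.p6, 5′ to 3′ on the gene's strand, and capitals mark letters that match a C/EBP type motif, TTGCNNAA on either strand.
Ngp: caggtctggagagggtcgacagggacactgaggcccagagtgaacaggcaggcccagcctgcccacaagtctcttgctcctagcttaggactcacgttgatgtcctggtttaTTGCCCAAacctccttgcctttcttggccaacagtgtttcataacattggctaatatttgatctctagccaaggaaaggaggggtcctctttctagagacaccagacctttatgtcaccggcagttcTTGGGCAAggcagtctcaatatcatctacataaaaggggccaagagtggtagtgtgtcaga
Ltf: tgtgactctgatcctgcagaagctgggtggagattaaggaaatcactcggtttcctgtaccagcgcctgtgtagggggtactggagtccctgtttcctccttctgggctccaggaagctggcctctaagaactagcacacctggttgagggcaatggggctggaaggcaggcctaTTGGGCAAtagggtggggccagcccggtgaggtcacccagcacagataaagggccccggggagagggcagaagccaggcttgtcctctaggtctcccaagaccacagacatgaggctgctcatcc
Lcn2: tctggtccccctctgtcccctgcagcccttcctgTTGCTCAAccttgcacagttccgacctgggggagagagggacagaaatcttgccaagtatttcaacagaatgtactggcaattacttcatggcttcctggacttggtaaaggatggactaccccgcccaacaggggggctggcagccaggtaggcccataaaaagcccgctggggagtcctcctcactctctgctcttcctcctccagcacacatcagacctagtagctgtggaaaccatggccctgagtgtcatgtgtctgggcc
S100a9: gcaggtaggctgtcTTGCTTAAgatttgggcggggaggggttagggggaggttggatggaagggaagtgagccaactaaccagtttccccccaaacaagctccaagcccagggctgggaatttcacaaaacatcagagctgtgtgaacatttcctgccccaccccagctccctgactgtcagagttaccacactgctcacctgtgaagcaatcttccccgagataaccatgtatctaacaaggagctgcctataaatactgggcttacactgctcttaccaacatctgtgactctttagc
Saa3: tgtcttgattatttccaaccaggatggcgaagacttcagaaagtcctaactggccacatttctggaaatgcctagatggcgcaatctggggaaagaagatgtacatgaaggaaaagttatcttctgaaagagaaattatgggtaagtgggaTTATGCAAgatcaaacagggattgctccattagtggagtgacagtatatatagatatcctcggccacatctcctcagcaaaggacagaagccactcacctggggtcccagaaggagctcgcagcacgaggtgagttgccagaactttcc
They lie at chr9:110419558-110419857 (plus strand) for Ngp, chr9:111019042-111019341 (plus strand) for Ltf, chr2:32387690-32387989 (minus strand) for Lcn2, chr3:90695672-90695971 (minus strand) for S100a9 and chr7:46715627-46715926 (minus strand) for Saa3. The C/EBP type letters were found in the windows of 7 of the 10 genes, Lcn2, Ltf, Mmp8, Ngp, S100a9, Saa3 and Slpi, against 10.8% of 32851 promoter windows of the same length. Every window shown holds such a match, and the windows of S100a8, Camp and Csf3r, which hold none, are not shown. In Saa3 the match began 99 bases before the start, in Ltf 75 bases and in Ngp 138 and 11 bases. Of the other motifs searched on both strands, TATAAA was in 3 of the 10 windows (13.6% of all), AGATAA in 3 (11.2%), and the STAT type TTCNNNGAA (8.3%) and the AP-1 type TGANTCA (7.81%) in 0. These are matches of letters in a short window and say nothing of which factor was bound.

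Saa3 was by far the highest of the 10 genes per length in every library, and the order of the others differed between the experiments. On the authors' FPKM scale, which is relative to gene length, Saa3, an acute phase apolipoprotein gene of macrophages and other tissues, had 423 and 424 FPKM in the high Satb1 siRNA libraries and 504 and 502 FPKM in the high NT libraries. In the low experiment it had 917 FPKM with Satb1 siRNA and 3259 FPKM with NT siRNA, rank 11 among 27634 genes in that NT library. Without Saa3 the FPKM of the 9 other genes summed to 64.1 and 65.7 in the high Satb1 siRNA libraries, 65.1 and 63.4 in the high NT libraries, 273 in the low Satb1 siRNA library and 798 in the low NT library. Of these, Lcn2, Ngp, Ltf and Camp averaged under 1.2 FPKM in both high groups, where Camp had 0 and 0.18 FPKM with Satb1 siRNA and 0.10 and 0 FPKM with NT siRNA. In the high Satb1 siRNA libraries the neighbours S100a9 (13.48 to 14.61 FPKM) and Slpi (12.46 to 13.69 FPKM) overlapped, so their order was not resolved. Mmp8, which encodes neutrophil collagenase, was last in the low NT library, at 9.35 FPKM, and sixth in both high groups. In the low Satb1 siRNA library Mmp8 (4.08 FPKM, 251 counts) and Ltf (4.23 FPKM, 291 counts) were lowest. These counts did not resolve their order.

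**Figure D1:**
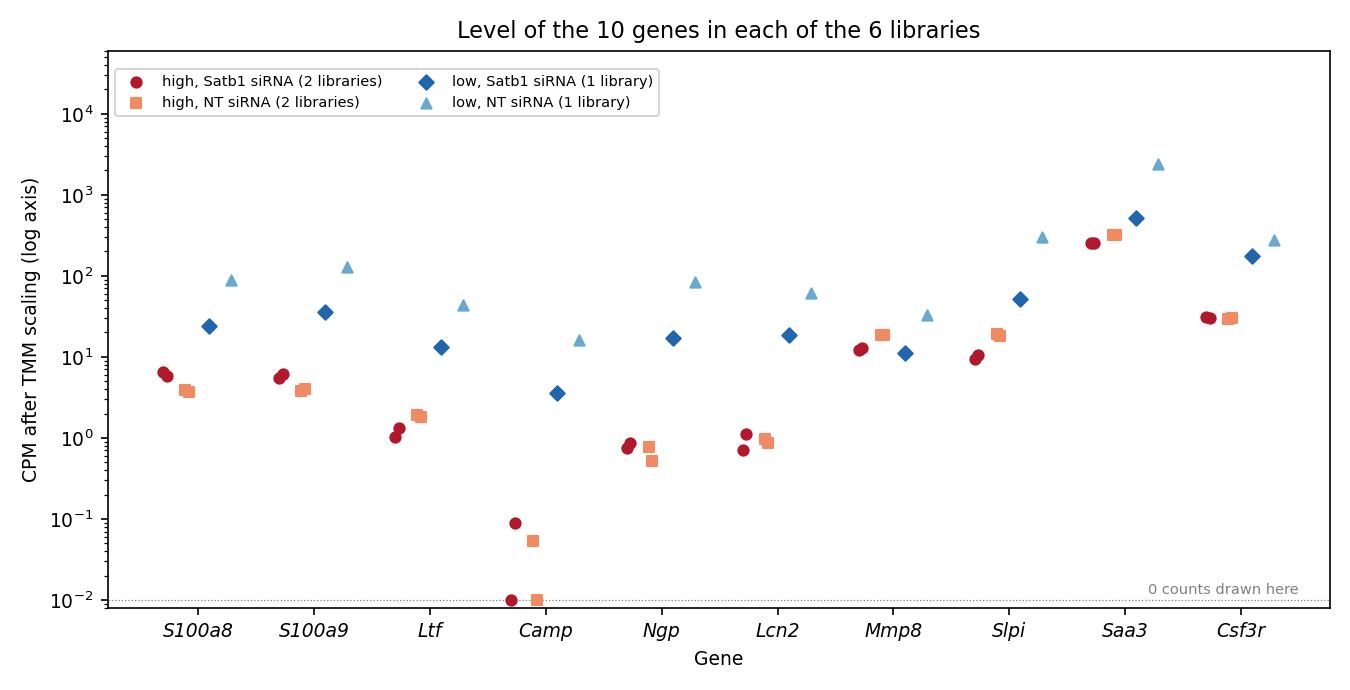
Level of each gene in the 6 libraries, in CPM after TMM scaling on a log axis, with 1 point per library and libraries with 0 counts drawn at the dotted line. The low NT library is the highest point for all 10 genes, and the repeats of each high group lie close together, except for Camp with 0 to 5 counts.

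The high experiment compares strong downregulation of Satb1 with its control. The cytosolic pair S100a8 and S100a9, whose proteins join as calprotectin, rose, and the products Slpi, Ltf, Mmp8 and Saa3 fell. S100a8 had 6.44 and 5.88 CPM in the Satb1 siRNA libraries, against 3.95 and 3.68 CPM in the NT libraries. Both Satb1 siRNA libraries were above both NT libraries, and edgeR gave a log2 fold change of 0.70 (SE 0.087 over the repeats, edgeR adjusted p = 7.76e-11). S100a9 had 5.56 and 6.17 CPM in the Satb1 siRNA libraries, against 3.78 and 3.97 CPM in the NT libraries, again without overlap. Its log2 fold change was 0.60 (SE 0.088, edgeR adjusted p = 1.08e-08).

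The fall was largest for Slpi, which encodes an inhibitor of neutrophil elastase. Slpi had 9.51 and 10.4 CPM in the Satb1 siRNA libraries, against 18.9 and 18.1 CPM in the NT libraries, a log2 fold change of -0.89 (SE 0.052, edgeR adjusted p = 2.71e-25). Ltf, which encodes the iron-binding granule protein lactotransferrin, had only 60 and 75 counts in the Satb1 siRNA libraries, against 141 and 142 counts in the NT libraries. The groups did not overlap, and its log2 fold change was -0.66 (SE 0.154, edgeR adjusted p = 1.51e-04). Mmp8 had 12.2 and 13.02 CPM in the Satb1 siRNA libraries and 18.5 and 18.4 CPM in the NT libraries. Saa3, with the most counts, had 254.2 and 253.9 CPM in the Satb1 siRNA libraries and 321 and 320.5 CPM in the NT libraries. Their log2 fold changes were -0.55 for Mmp8 and -0.33 for Saa3, and every Satb1 siRNA library was below every NT library for both (edgeR adjusted p = 9.53e-17 and 5.98e-41).

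The 3 other tested genes had no call. Csf3r, the receptor of the neutrophil growth factor G-CSF, had 30.8 and 30.2 CPM in the Satb1 siRNA libraries and 29.6 and 30.0 CPM in the NT libraries (log2 fold change 0.037, edgeR adjusted p = 0.337). With scaling by library size alone it was called higher at 0.091 (edgeR adjusted p = 0.0139), a setting that raises the median of all genes from 0.011 to 0.065. Lcn2, which encodes a siderophore-binding lipocalin, had 42 and 62 counts in the Satb1 siRNA libraries and 73 and 68 in the NT libraries, and the repeats of the Satb1 siRNA group overlapped the NT range in CPM. Ngp, a granule protein gene of the cathelicidin family, had 44 and 49 counts in the Satb1 siRNA libraries and 57 and 40 in the NT libraries. It was called higher only when NT replicate 1 was left out (log2 fold change 0.66, edgeR adjusted p = 0.0338). Camp, the cathelicidin gene, had 0 and 5 counts in the Satb1 siRNA libraries and 4 and 0 in the NT libraries, under the filter on low counts, so 9 of the 10 genes were tested. In all, 2 genes were called higher and 4 lower, beside a background of 66% of 20242 genes called (32.8% higher, 33.2% lower). A share of calls this close to the background says nothing particular of the set.

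In the low experiment, where Satb1 changed little, all 10 genes were lower with Satb1 siRNA, 9 of them at least 2-fold, against 4.2% of 14103 genes lower and 9.79% higher at that size. With 1 library per siRNA there is no test, and the intervals below cover counting error only. In bulk RNA, fewer cells of a type and less RNA per cell cannot be told apart. Summed over the 10 genes, 874 CPM were seen in the Satb1 siRNA library and 3415 CPM in the NT library. Slpi had 51.6 CPM in the Satb1 siRNA library against 298 CPM in the NT library, 5.78-fold lower (95% counting interval 5.42 to 6.16). Of 14103 genes, 40 had a lower log2 ratio than Slpi. Saa3 had 525 CPM in the Satb1 siRNA library against 2388 CPM in the NT library, 4.55-fold lower (4.46 to 4.65). These intervals did not overlap, so Slpi differed by more than Saa3 beyond counting error within these 2 libraries.

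The cathelicidin family genes were lower by about as much as Saa3 and could not be told apart. Ngp had 17.3 CPM in the Satb1 siRNA library and 83.8 CPM in the NT library, 4.84-fold lower (95% counting interval 4.33 to 5.42). Camp had 79 counts in the Satb1 siRNA library and 311 in the NT library, 4.57-fold lower (3.56 to 5.93). The calprotectin genes and the iron-withholding genes Lcn2 and Ltf followed. S100a8 had 24.3 CPM in the Satb1 siRNA library and 87.7 CPM in the NT library, 3.61-fold lower (3.28 to 3.99). S100a9 had 35.4 CPM in the Satb1 siRNA library and 130 CPM in the NT library, 3.67-fold lower (3.38 to 3.98). Lcn2 had 18.4 CPM in the Satb1 siRNA library and 61.2 CPM in the NT library (3.32-fold lower, 2.96 to 3.72), and Ltf had 13.1 CPM in the Satb1 siRNA library and 43.8 CPM in the NT library (3.34-fold lower, 2.92 to 3.83). These 4 intervals overlapped. Those of Camp and of Mmp8, given next, overlapped each of the 4 as well, so the 4 genes were not resolved as a group. Mmp8 had 11.3 CPM in the Satb1 siRNA library and 33.1 CPM in the NT library, 2.93-fold lower (2.53 to 3.41). Csf3r stood apart with 174 CPM in the Satb1 siRNA library and 274 CPM in the NT library, 1.57-fold lower (1.51 to 1.64), and 1422 of 14103 genes had a lower log2 ratio. The median log2 ratio of the 10 genes was -1.86, beside -0.053 over all genes tested. Scaling by library size alone raised the median of all genes to 0.30 and shifted each of the 10 genes likewise, and all 10 stayed below 0.

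**Figure D2:**
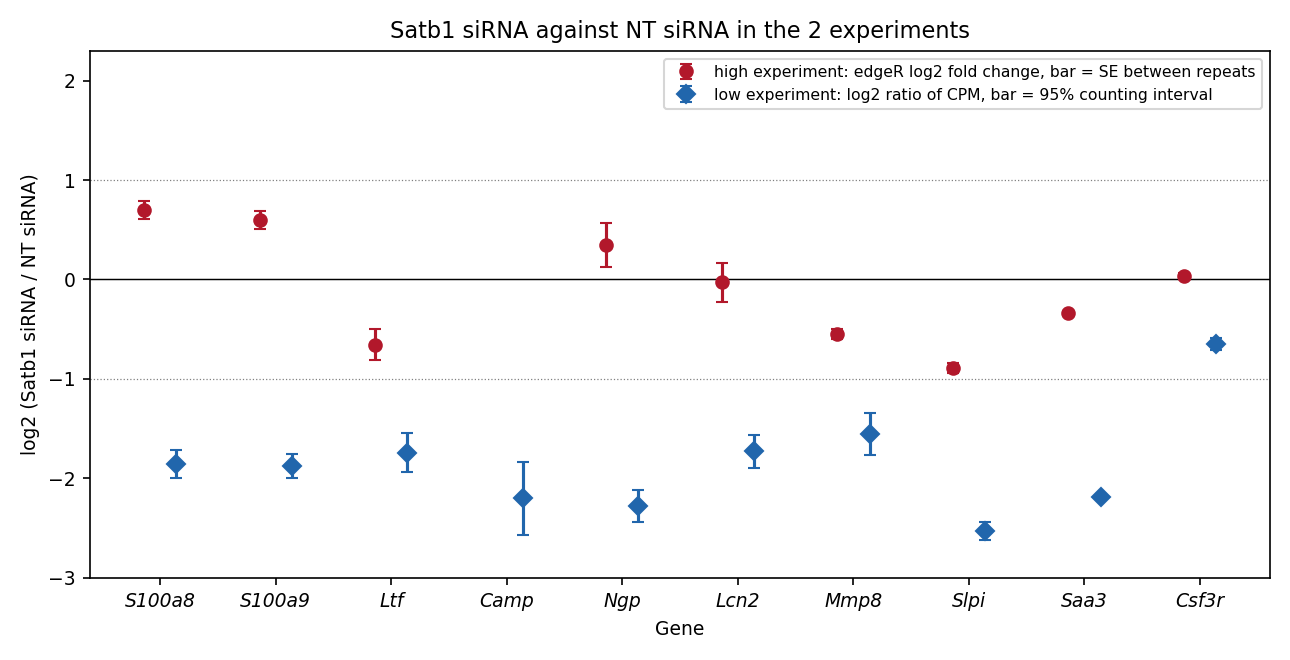
Log2 of Satb1 siRNA over NT siRNA for each gene, in the high experiment (circles, edgeR log2 fold change with its SE between repeats; Camp was not tested) and in the low experiment (diamonds, log2 ratio of CPM with its 95% counting interval). S100a8 and S100a9 lie above 0 in the high experiment and at -1.85 and -1.87 in the low experiment.

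The effect of Satb1 siRNA was more negative in the low than in the high experiment for 9 of the 10 genes, by a test of the difference itself in edgeR over all 6 libraries. The background was 39.7% of 20971 genes called, 17.9% in this direction (3756 genes) and 21.8% in the other (4564 genes). That split moved with the method, to 1742 and 8339 genes with library size alone and to 2412 and 1390 genes in DESeq2, and in both 9 of the 10 genes were called in this direction. This test takes its spread from the near-identical repeats of the high experiment and assumes that the single low libraries vary as little. The difference, high minus low, was largest among the called genes for Ngp (2.62 on the log2 scale, edgeR adjusted p = 2.91e-18), S100a8 (2.55, edgeR adjusted p = 3.30e-42) and S100a9 (2.47, edgeR adjusted p = 1.56e-43). S100a8 and S100a9 were higher in the high experiment and lower in the low one, whereas Slpi, Saa3, Mmp8 and Ltf were lower in both, with differences of 1.64, 1.85, 1.00 and 1.08. Csf3r had the smallest difference, 0.68 (edgeR adjusted p = 6.67e-25). Camp was not called (2.87, SE 1.31, edgeR adjusted p = 0.101). Its value rests on 0 to 5 counts in the high libraries, and it was called without high NT replicate 1 (6.30) or high Satb1 siRNA replicate 1 (3.87).

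With repeats summed and the experiments as the only replicates, edgeR called 0 of the 10 genes, beside 0.0315% of 19068 genes, 0 higher and 6 lower. Library size alone called 259 genes higher and 87 lower, and DESeq2 58 higher and 124 lower. All 10 log2 fold changes were below 0, and 3 were below an unadjusted p of 0.05, as were 1633 of the 19068 genes. The 3 were Ltf (-1.21, edgeR adjusted p = 0.382), Mmp8 (-1.03, edgeR adjusted p = 0.413) and Slpi (-1.71, edgeR adjusted p = 0.548). DESeq2 called 2 of the 10 lower, Slpi (-1.72, DESeq2 adjusted p = 1.24e-03) and Saa3 (-1.27, DESeq2 adjusted p = 0.0437). S100a8 and S100a9 had -0.58 and -0.65 with standard errors of 0.80 and 0.77.

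The control libraries differed from each other by more than any effect of siRNA on 9 of the 10 genes. All 10 were higher in the low NT library than in the high NT libraries, 9 of them at least 2-fold, against 25.4% of 15189 genes higher at that size and 25.6% lower. The rise was not particular to these genes. At least 2-fold higher were also 12 of 12 dendritic cell, 5 of 5 B cell and 5 of 6 T cell markers. So were 8 of 10 neutrophil and 6 of 10 monocyte markers, some of them read only through their low NT level. Of 10 macrophage markers 4 were higher and 3 lower at that size, and 10 of 12 mesothelial and epithelial markers were lower. Ngp had 83.8 CPM in the low NT library, while the high NT libraries had 0.768 and 0.513 CPM, 132-fold higher (95% counting interval 107 to 163). Lcn2 stood at 61.2 CPM in low NT, while high NT had 0.983 and 0.872 CPM, 66.1-fold higher (55.4 to 79.2). Camp had 311 counts in low NT and 4 in both high NT libraries together, a ratio of 619 with an interval of 239 to 2286. All 4 were in high NT replicate 1. With a mean of 0.027 CPM in high NT, Camp reached the level of 0.5 CPM only through the low NT library. Its direction and its place among the 9 genes thus followed from passing that filter. On the log2 scale with a prior count of 2 the Camp ratio was 8.08, and it was 7.46 without high NT replicate 2 and 8.71 without high NT replicate 1, where no count is left in high NT. These 3 genes were close to absent in the high libraries and well measured in the low ones.

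S100a9 was 33.5-fold (30.6 to 36.7), Ltf 23.5-fold (20.6 to 27.0), S100a8 23.0-fold (20.9 to 25.4) and Slpi 16.1-fold (15.4 to 16.9) higher in the low NT library. Csf3r was 9.18-fold higher there (8.82 to 9.55) and Saa3 7.44-fold higher (7.34 to 7.53). Mmp8 was the exception, at 33.1 CPM in low NT, where high NT had 18.5 and 18.4 CPM, 1.79-fold higher (1.64 to 1.95), which scaling by library size alone reduces to 1.16-fold (1.06 to 1.26). That setting shifts the median log2 ratio of all genes from 0.020 to -0.60. The median of the 10 genes was 4.52 with TMM scaling. Experiment and batch cannot be told apart here. This comparison shares the low NT library with that of the low experiment.

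Other markers moved together with the 10 genes across the low libraries. Of 12 neutrophil markers, 11 were measured and 10 reached the level needed, and 7 of these were at least 2-fold lower in the low Satb1 siRNA library than in its NT control, with a median log2 ratio of -1.5. Among the 7 were Mrgpra2b (0 counts with Satb1 siRNA, 50 with NT siRNA) and a stefin A gene (8 and 30 counts). Both reached the level only through the low NT library, so their fall was built into the filter. The summed level of the 11 measured markers was 849 CPM in the low Satb1 siRNA library and 1523 CPM in the low NT library. It was 388 to 390 CPM in the high Satb1 siRNA and 314 CPM in the high NT libraries. Fpr1, a receptor for bacterial formyl peptides, had 54.2 CPM in the low Satb1 siRNA library against 256 CPM in the low NT library. Mmp9, a gelatinase gene that macrophages express too, had 745 CPM in the low Satb1 siRNA library and 1145 CPM in the low NT library and made up most of the sum in every library. In the high experiment 3 of 8 tested neutrophil markers were called higher and 1 lower, Trem1, an activating receptor of myeloid cells (log2 fold change -0.64, edgeR adjusted p = 4.54e-16). Cxcr2, the main chemokine receptor of neutrophils, went against the rest between the controls, at 17.4 CPM in low NT, where high NT had 37.7 and 37.2 CPM. Ceacam10 and Mrgpra2b were at 0 in the low Satb1 siRNA library.

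Mesothelial and epithelial markers ran the other way. Of 12 measured, 11 were at least 2-fold higher in the low Satb1 siRNA library than in the low NT library (median 1.65 on the log2 scale), and their sum was 731 CPM against 208 CPM. In the high experiment the sum was 1054 and 1045 CPM with Satb1 siRNA and 950.5 and 954 CPM with NT siRNA, and none of the 12 was at 0 in any library. Upk3b, a mesothelial marker, had 198 CPM in the low Satb1 siRNA library and 40.1 CPM in the low NT library. Dendritic cell markers had a median log2 ratio of 0.84 in the low experiment, with 4 of 12 at least 2-fold higher, and macrophage markers one of -0.41. Monocyte markers did not move as a group in the high experiment, with 5 of 10 called higher, 4 lower and a median log2 fold change of 0.069. Their sum was 4902 and 4887 CPM with Satb1 siRNA there and 3933 and 3944 CPM with NT siRNA, a difference that came mostly from F13a1 (2728 and 2723 CPM with Satb1 siRNA, 2047 and 2052 CPM with NT siRNA) and Chi3l3 (565 and 559 CPM with Satb1 siRNA, 252.5 and 252.2 CPM with NT siRNA). Ly6c1 (-1.67), Vcan (-1.24) and Plac8 (-1.13) fell there on the log2 scale (edgeR adjusted p = 2.37e-17, 1.04e-56 and 1.02e-49). In the low experiment the sum was 3703 CPM with Satb1 siRNA and 5622 CPM with NT siRNA, with 2 of 10 at least 2-fold lower. The part of these cell types in the values of the 10 genes was not tested.

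**Figure D3:**
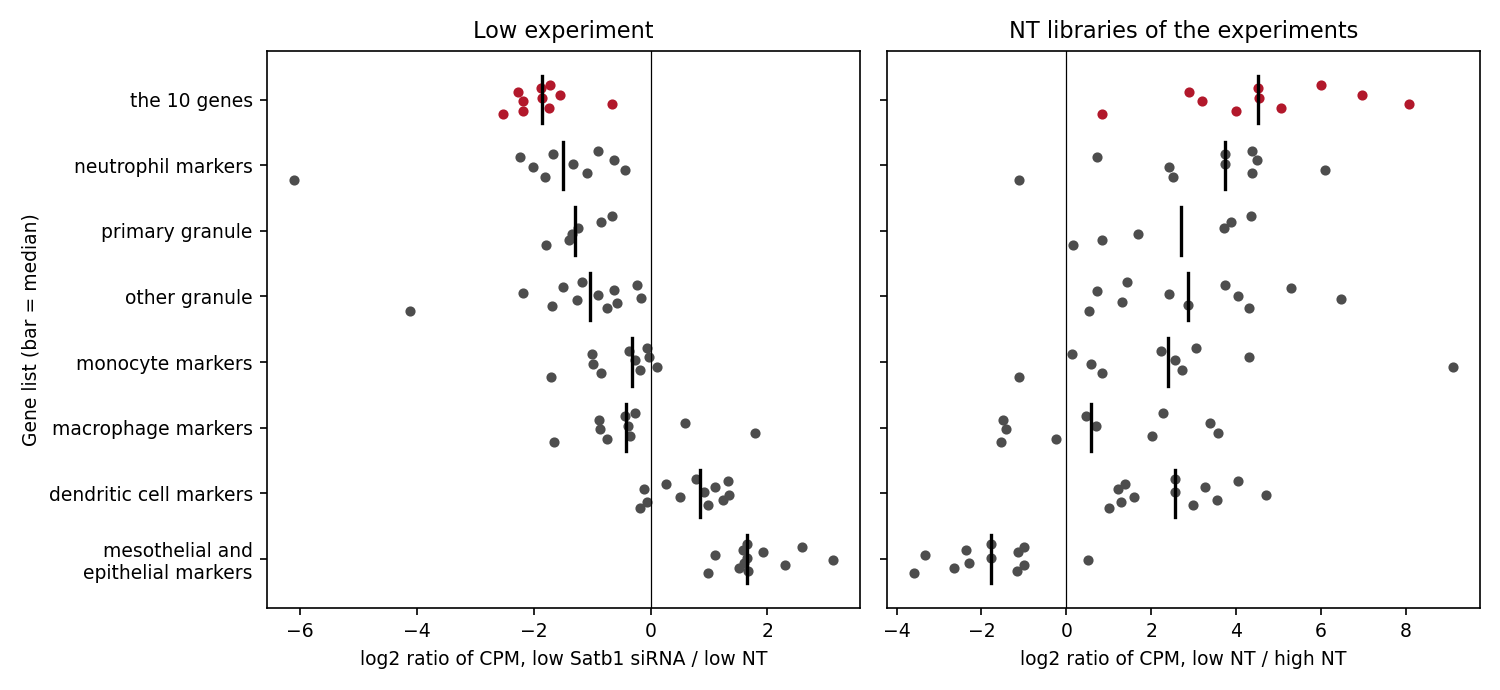
Log2 ratio of CPM for each gene of 8 lists, for the low Satb1 siRNA library over the low NT library (left) and the low NT library over the high NT libraries (right), with 1 point per gene and the list median as a bar. The 10 genes have medians of -1.86 and 4.52, and the mesothelial and epithelial markers have medians of 1.65 and -1.77. Both panels use the low NT library.

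Other granule genes were lower in the low Satb1 siRNA library as well. All 6 primary granule genes with enough counts were below 0, 4 of them at least 2-fold, with a median log2 ratio of -1.29. Mpo, the myeloperoxidase gene, had 3.46 CPM in the low Satb1 siRNA library and 12.03 CPM in the low NT library. It fell in the high experiment too, to 0.407 and 0.393 CPM with Satb1 siRNA against 0.848 and 0.910 CPM with NT siRNA (log2 fold change -1.13, edgeR adjusted p = 2.69e-05), while Prtn3, the proteinase 3 gene, rose by 0.66 on the log2 scale (edgeR adjusted p = 9.32e-09). All 12 other secondary and tertiary granule genes, Mmp9 among them, were below 0 in the low experiment, 6 of them at least 2-fold, with a median of -1.04. Of 10 tested in the high experiment, 3 were called higher and 5 lower.

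The G-CSF axis was barely expressed at its ligand. Csf3, which encodes G-CSF, had at most 0.322 CPM in any library. In the high experiment it had 0.220 and 0.322 CPM with Satb1 siRNA and 0.189 and 0.128 CPM with NT siRNA and was not called (log2 fold change 0.77, SE 0.40, edgeR adjusted p = 0.0795). Of 14 genes in the list of the G-CSF, IL-17 and IL-6 axis, 12 were tested in the high experiment, 3 called higher and 6 lower. Socs3, a feedback inhibitor of Csf3r and Il6st signalling, fell to 38.3 and 37.1 CPM in the high Satb1 siRNA libraries, against 70.7 and 68.2 CPM with NT siRNA (log2 fold change -0.88, edgeR adjusted p = 1.20e-40). In the low experiment it had 94.1 CPM with Satb1 siRNA and 184 CPM with NT siRNA. Over the list, 2 of 10 genes with enough counts were at least 2-fold lower there, 2 were at least 2-fold higher, and the median log2 ratio was -0.30. The lower ones were Il6, with 12.5 CPM in the low Satb1 siRNA library and 56.7 CPM in the low NT library, and Il1b, with 34.2 CPM in the low Satb1 siRNA library and 79.0 CPM in the low NT library. The higher ones were Il17rc (log2 ratio 1.93) and Il1r1 (1.11), the receptor genes of IL-17 and IL-1.

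Among granulocyte transcription factors, Cebpe, the C/EBP gene of granule maturation, had 3.73 CPM in the low Satb1 siRNA library and 8.42 CPM in the low NT library, and at most 0.320 CPM in the high libraries. Cebpb, the C/EBP gene of emergency granulopoiesis and the acute phase, had 37.1 CPM in the low Satb1 siRNA library and 80.7 CPM in the low NT library. It fell slightly in the high experiment, to 89.5 and 88.4 CPM with Satb1 siRNA against 103 and 105 CPM with NT siRNA (log2 fold change -0.22, edgeR adjusted p = 9.37e-14). Cebpa and Cebpd of the same family were not lower in the low experiment. Cebpa had 89.2 CPM with Satb1 siRNA and 82.9 CPM with NT siRNA, and Cebpd had 7.56 CPM with Satb1 siRNA and 6.80 CPM with NT siRNA. Over the list, 1 of 6 tested genes was called higher and 3 lower in the high experiment. In the low experiment 3 of 7 were below 0, the median log2 ratio was 0.11, and Klf5 had the highest ratio (2.38).

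The other acute phase genes, most of them best known from the liver, did not all go the way of Saa3. Of 23, 17 were tested in the high experiment, with 8 called higher, 2 lower and a median of 0.41. In the low experiment 4 of 11 were at least 2-fold lower and 1 at least 2-fold higher, with a median of -0.33. Hp, the haptoglobin gene, had 88.2 CPM in the low Satb1 siRNA library and 331 CPM in the low NT library. Hp fell in the high experiment, to 18.9 and 19.3 CPM with Satb1 siRNA against 24.2 and 23.6 CPM with NT siRNA (log2 fold change -0.32, edgeR adjusted p = 7.88e-11). C3, the central complement gene, had 1851 CPM in the low Satb1 siRNA library and 1495 CPM in the low NT library.

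The S100 genes besides the calprotectin pair showed no such decrease in the low experiment. Of 7 with enough counts 0 were at least 2-fold lower, 1 was at least 2-fold higher, and the median was 0.062. S100a6, the next S100 gene of some abundance beside S100a8 on chromosome 3, had 214 CPM in the low Satb1 siRNA library and 197 CPM in the low NT library. It rose in the high experiment by 0.31 on the log2 scale (edgeR adjusted p = 2.36e-23). Of 10 measured whey acidic protein and antiprotease genes other than Slpi, 4 had enough counts in the low experiment and 0 were at least 2-fold lower. Of 6 measured receptors of the secreted products, 5 had enough counts there and 2 were at least 2-fold lower. Both stefin A genes with enough counts were at least 2-fold lower too. The 7 stefin A genes summed to only 1.17 CPM in the low Satb1 siRNA library and 4.76 CPM in the low NT library. A stefin A gene with 8 and 30 counts there reached the level needed only through the low NT library, so its fall carries no weight.

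Ratios within a library do not depend on scaling. The count of S100a9 over that of S100a8 was 1.46 in the low Satb1 siRNA library (95% counting interval 1.30 to 1.63) and 1.48 in the low NT library (1.39 to 1.58). It was 0.863 and 1.05 with Satb1 siRNA in the high experiment and 0.959 and 1.08 in the high NT libraries, with intervals that reach at most 1.27. The low libraries thus had relatively more S100a9 than the high libraries, with no difference by siRNA beyond counting error. Ltf over Lcn2 was 0.710 in the low Satb1 siRNA library and 0.715 with NT siRNA there. In the high experiment it was 1.43 (95% counting interval 0.947 to 2.17) and 1.21 (0.853 to 1.72) with Satb1 siRNA. With NT siRNA there it was 1.93 (1.45 to 2.60) and 2.09 (1.55 to 2.83), and these intervals overlapped those with Satb1 siRNA. Both Satb1 siRNA ratios were below both NT ratios, and overlap of single-library intervals does not show that the groups were alike. Slpi over Lcn2 was lower with Satb1 siRNA in the low experiment, at 2.80 (2.49 to 3.14) against 4.87 with NT siRNA (4.57 to 5.19). In the high experiment it was 13.4 (9.75 to 18.7) and 9.40 (7.23 to 12.4) with Satb1 siRNA. With NT siRNA there it was 19.3 (15.2 to 24.7) and 20.8 (16.3 to 26.9). Both Satb1 siRNA ratios were below both NT ratios, and the interval of Satb1 siRNA replicate 1 overlapped those with NT siRNA.

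**Figure D4:**
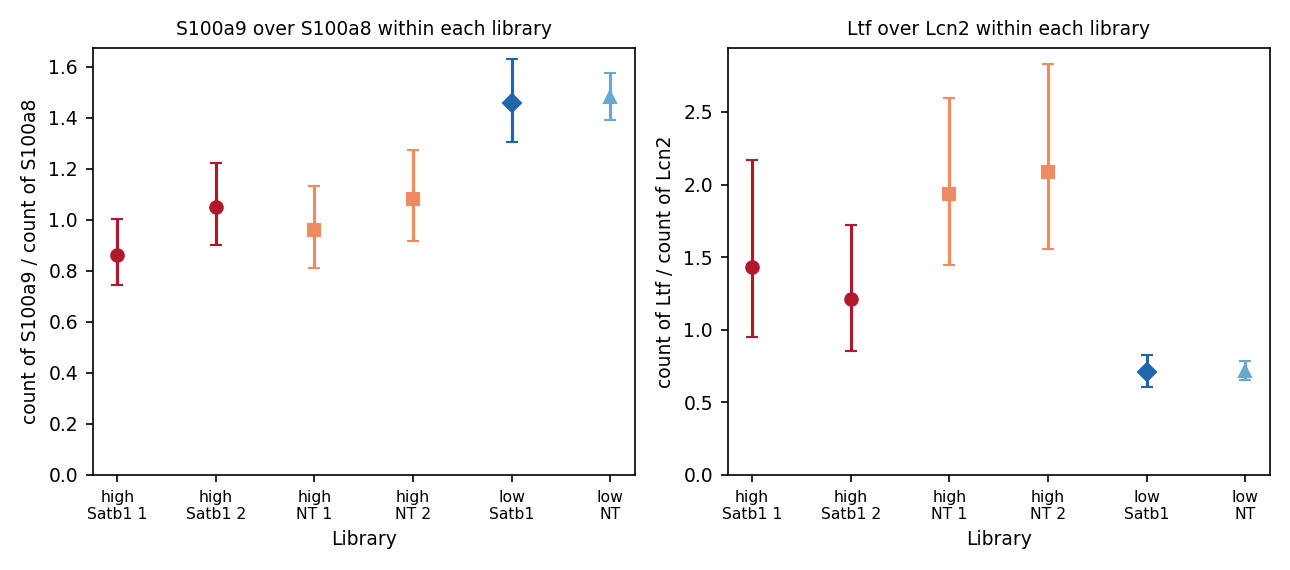
Ratio of counts within each library, S100a9 over S100a8 (left) and Ltf over Lcn2 (right), with 95% counting intervals, not corrected for gene length. S100a9 over S100a8 is 1.46 and 1.48 in the low libraries and 0.863 to 1.08 in the high ones.

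Likeness was computed only for S100a8, S100a9, Ltf, Slpi, Lcn2 and Saa3. The search covered 12177 genes whose mean log2 CPM reached 1. The nearest genes were those with the smallest largest difference of centred log2 CPM over the 4 group means. For S100a8 they were Emr4 (0.15), Retnlg (0.25), a secreted product of neutrophils, and S100a9 (0.34). Ly6i (0.21) came nearest to S100a9, before S100a8 (0.34) and Emr4 (0.39). For Ltf they were Il6 (0.25), Slc2a6 (0.27) and Il27 (0.32), and for Slpi they were Hp (0.41), AW112010 (0.45) and Mpo (0.46). Lcn2 was nearest to Fam26f (0.28), Cxcl11 (0.43) and Pnp2 (0.48), and Saa3 to Mir155 (0.17), Lpcat2 (0.32) and Fosl1 (0.33). With only 4 group means, many genes can come this close, and all distances use the low NT library.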

How the data were processed

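RNA sequencing values of 6 libraries were taken from one table. Per the file headers it gives each gene an FPKM, scaled by the authors for length and depth, and a count. The deposited counts, all whole, were taken for estimated counts. The submitters' processing notes name RSEM 1.2.12, DESeq2 and the mouse build mm9. Whether counting used strand is not stated there. Libraries came from Trizol RNA and a stranded total RNA kit, per the labels' protocols.

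The high experiment (4 libraries) was fitted with edgeR 4.0.16 in R 4.3.3 (TMM, filterByExpr, robust quasi-likelihood F tests, two-sided, Benjamini-Hochberg adjustment over all genes, threshold 0.05). The low experiment and the NT libraries were compared by ratios of CPM with exact 95% counting intervals, and log2 ratios carry a prior count of 2. Ratios were read for genes averaging at least 0.5 CPM over the 2 groups. Differences between experiments were tested as an interaction over 4 group means. Summed repeats were fitted with the experiment as a term. A count of 0 allows 3 counts, or 0.0421 to 0.122 CPM of the unscaled library total; floors and intervals cover counting error only. DESeq2 1.42.0, other scalings, no filter, a replicate block and left-out libraries were alternatives.

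The fits were tested on simulated counts. The deviations of same-numbered libraries from their group means had a correlation of -0.041. With repeats this close to counting noise, that value cannot decide whether the libraries were paired. The 10 genes and the lists were chosen with earlier results of these data known. The rule for named genes allowed the 10 genes, Satb1, from each list at most the 4 most abundant genes and the largest called rise and fall, and the genes nearest in pattern. Not all of these are named, and which are was chosen after their values were seen. Flt3, Csf3, Cebpe, Ceacam10, Mrgpra2b, Vcan, Plac8, Il17rc and Klf5 lie outside that rule and were likewise chosen after their values were seen. Promoter sequences are from RefSeq, where all 10 genes matched. Its build is not that of the counts.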

Additional observations from a re-analysis of the deposited data

Results flagged for a closer look

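For 9 of the 10 genes the effect of Satb1 siRNA differed between the experiments, by the edgeR interaction test over 6 libraries. Of all 20971 genes tested, 39.7% were called, 17.9% in the direction of these 9 genes and 21.8% in the other. That split moved with the method. The differences, as the log2 effect in the high minus that in the low experiment, were 2.55 for S100a8, 2.47 for S100a9, 2.62 for Ngp, 1.85 for Saa3, 1.70 for Lcn2, 1.64 for Slpi, 1.08 for Ltf, 1.00 for Mmp8 and 0.68 for Csf3r. For S100a8 and S100a9 the experiments also differed in direction. The p-values rest on the spread between near-identical repeats, and the low experiment has 1 library per siRNA.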

How the results depend on the processing

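Leaving out each high library in turn gave 11942 to 12092 called genes in the high experiment (13367 with all 4), 2 to 3 of the 10 genes called higher and 4 called lower. It gave 8077 to 8156 genes in the test between experiments (8320 with all) and 0 in the summed fit (6 with all), a choice made after seeing the data. DESeq2 called 9071 genes in the high experiment, 3802 in the test between experiments and 182 in the summed fit, where library size alone called 346. Of the 10 genes, the summed fit called 0, and 2 with DESeq2 and 2 with library size alone, Slpi and Saa3 in both cases. Lcn2 in the high experiment (-0.027) changed sign with library size alone (0.027), without NT replicate 1 (0.054) and without Satb1 siRNA replicate 1 (0.27), and was -0.37 without Satb1 siRNA replicate 2; it was called in none. The Camp difference (2.87) ranged from -1.34 (without high Satb1 siRNA replicate 2) to 6.30 (without high NT replicate 1). The replicate block, with numbers not known to pair the samples, called 13248 genes in the high experiment and the same 2 genes higher and 4 lower. Other scalings and prior counts kept all 10 genes below 0 in the low experiment and above 0 between the NT libraries. The log2 ratio of Camp between the NT libraries (8.08) was 7.46 to 8.71 with 1 high NT library left out. For Camp, 0 to 5 counts in the high libraries limit any fold.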
